A study of Chlorocebus aethiops with 24 samples.

Results

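GPR17, NEU4 and SOX6, as genes of the early oligodendrocyte lineage, and BCAS1, SOX10 and MYRF, as genes of its later steps, were followed in the left hippocampus of 22 male vervet monkeys (labelled Chlorocebus aethiops). Each of the 6 genes had 1 row among the 11512 rows of the expression table, in which the authors had kept 1 probe set per gene by their annotation. The genes were chosen by name, for their place in the lineage, with their measured differences in log2 expression between the 4 groups of these same arrays known. All differences between groups of these 6 genes are therefore given as a description, with no test.

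Control animals had been exposed before birth to sucrose and animals with fetal alcohol spectrum disorder (FASD) to ethanol, which alcohol-preferring dams drank voluntarily late in pregnancy. The whole hippocampus was collected at 5 months or 2 years of age. There were 6 controls and 5 FASD animals at each age, each animal on 1 rhesus macaque array, so vervet RNA was hybridized to probes of another species. Values are log2 expression intensities, and a difference of 1 is a doubling of the intensity. In this bulk tissue, fewer cells of a type and less RNA per cell cannot be told apart.

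Oligodendrocytes, the cells that wrap axons in myelin, arise from dividing precursors that persist in the brain after birth. A precursor that commits to the lineage passes through a short intermediate state before it becomes a newly formed and then a myelinating cell. GPR17 is a membrane receptor of that intermediate state, and its level falls as the cells mature. NEU4 is a sialidase, which removes sialic acid from glycans, and SOX6 is a transcription factor that holds precursors back from differentiation. BCAS1 marks newly formed and early myelinating cells. SOX10 is a transcription factor present throughout the lineage that is needed for terminal differentiation, and MYRF, the myelin regulatory factor, switches on myelin genes.

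Pearson's r over all rows was between 0.972 and 0.995 for pairs of arrays. FASD animal 2 at 5 months had the lowest mean r with the other arrays, at 0.979, and its lists of other cell types stood apart. On a scale where each gene is centred on its mean over the 22 animals, its mean was 0.68 for 6 measured genes (of 12 listed) of mural cells and fibroblasts, 0.36 for 8 of 12 of microglia and -0.52 for 5 of 11 of excitatory neurons. It was the highest or lowest of the 5 FASD animals at 5 months in each of these lists. Control animal 6 at 5 months has a source name that gives 2 years, while its title, description and age give 5 months, and it was placed at 5 months. Many of the results that rest on either animal are given with and without it. The correlations with the means of gene lists were not run without either animal alone.

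At 5 months all 6 genes had a higher mean in FASD animals than in controls, and GPR17 had the widest gap. For SOX6 this rested on FASD animal 2, without which its difference was -0.00, and the other 5 genes stayed above 0 without that animal. GPR17 was 6.43 at the lowest, 6.76 at the median and 7.09 at the highest in the controls. In the FASD animals it was 7.13, 7.34, 7.41, 7.42 and 7.58. Every FASD animal was above every control. The group means were 6.76 ± 0.28 (SD, n = 6) and 7.38 ± 0.16 (SD, n = 5), a log2 difference of 0.62 (SE 0.22) or 1.54-fold. In the table as a whole, 0.122% of rows had all FASD animals above all controls at this age. GPR17 had the second largest difference among those 14 rows, after ACAN, which encodes the cartilage proteoglycan aggrecan (0.72). Since GPR17 was selected on this difference, nothing is read from that share or from this rank.

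NEU4 ranged from 6.75 to 7.09 in the 5-month controls, with a median of 6.79, and was 6.86, 6.95, 7.00, 7.01 and 7.04 in the FASD animals. The ranges overlapped through 1 control, animal 4 at 7.09, and the other 5 controls were at or below 6.85 and so under every FASD animal. The difference of the means was 0.13 (SE 0.07). SOX6 did not separate the groups at this age. Its controls ranged from 8.64 to 9.06 (median 8.88), the FASD animals were at 8.80, 8.84, 8.91, 8.95 and 9.13, and the difference was 0.05 (SE 0.10), or -0.00 without FASD animal 2.

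Among the later genes, BCAS1 was 8.89 at the lowest, 9.09 at the median and 9.45 at the highest in the 5-month controls. The FASD animals were at 9.14, 9.35, 9.45, 9.46 and 10.17. The difference was 0.41 (SE 0.17), or 1.33-fold, and 3 of 5 FASD animals lay above the highest control. The value of 10.17 belongs to animal 2, the array that stood apart, and without it the difference was 0.25 (SE 0.17). SOX10 ranged from 7.05 to 7.29 in the controls (median 7.09) and was 7.11, 7.21, 7.31, 7.42 and 7.67 in the FASD animals, a difference of 0.21 (SE 0.14), or 0.13 without animal 2. MYRF ranged from 8.00 to 8.16 in the controls (median 8.13) and was 8.02, 8.16, 8.23, 8.27 and 8.36 in the FASD animals, a difference of 0.11 (SE 0.09). The FASD groups of SOX10 and MYRF each had 3 animals above all controls and overlapped them otherwise.

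Leaving out FASD animal 2 gave a GPR17 difference of 0.61 (SE 0.24). Leaving out control animal 6, whose labels conflict, gave differences from 0.09 (SOX6) to 0.68 (GPR17). Of all rows, 39.0% were higher in FASD animals at this age. The genes were chosen with this comparison known, and nothing is read from the direction they share.

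**Figure D1:**
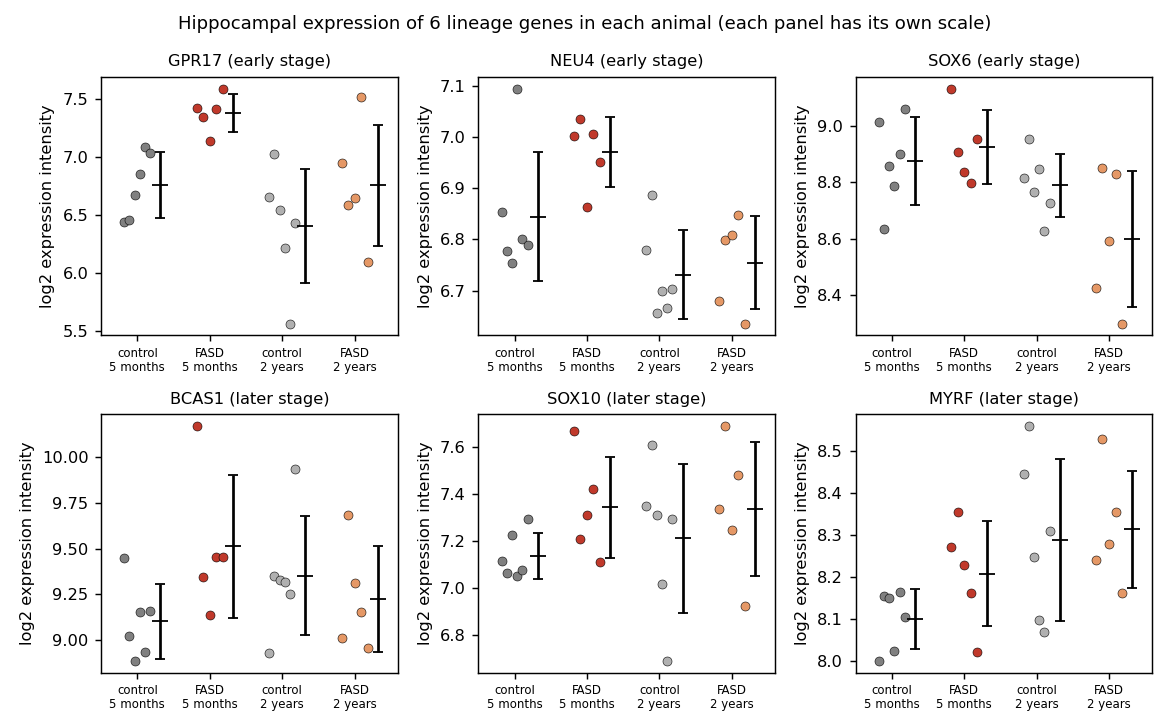
Log2 expression intensity of each gene (vertical axis, a scale of its own in each panel) in the 4 groups (horizontal axis). Each point is 1 animal, and the bar is the group mean with its SD. GPR17 at 5 months lies between 7.13 and 7.58 in FASD animals and between 6.43 and 7.09 in controls, while at 2 years the groups overlap for all 6 genes.

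At 2 years the groups overlapped for every one of the 6 genes. GPR17 was 5.56, 6.49 and 7.02 at the lowest, median and highest of the controls and 6.10, 6.58, 6.64, 6.94 and 7.51 in the FASD animals. The difference of 0.35 (SE 0.22) lay within SDs of 0.49 and 0.52, and it was 0.16 without FASD animal 4, the animal at 7.51. NEU4 had nearly the same mean in both groups, 6.73 ± 0.09 (SD, n = 6) in controls and 6.75 ± 0.09 (SD, n = 5) in FASD animals.

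SOX6 went the other way at 2 years. It ranged from 8.63 to 8.95 in the controls (median 8.79) and was 8.30, 8.42, 8.59, 8.83 and 8.85 in the FASD animals, of which 3 lay below every control. The difference was -0.19 (SE 0.10), and -0.12 without FASD animal 6, the lowest of its group. BCAS1 was also lower on average, by -0.13 (SE 0.17), with controls from 8.93 to 9.94 (median 9.32) and FASD animals at 8.96, 9.01, 9.16, 9.31 and 9.68. That difference rested on control animal 6, the one at 9.94, and was -0.01 without it. SOX10 differed by 0.12 (SE 0.14), or 0.02 without control animal 5, and MYRF by 0.03 (SE 0.09), or -0.03 without FASD animal 2, both inside the spread of the animals.

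The change of the FASD minus control difference from 5 months to 2 years was below 0 for all 6 genes, while 60.0% of all rows had a change above 0. It was -0.54 (SE 0.24) for BCAS1, or -0.37 without FASD animal 2 at 5 months. It was -0.27 (SE 0.31) for GPR17, -0.24 (SE 0.14) for SOX6, -0.10 (SE 0.09) for NEU4 and -0.08 for both SOX10 (SE 0.19) and MYRF (SE 0.12). Leaving out FASD animal 6 at 2 years moved GPR17 to -0.11 and turned SOX10 to 0.02, and leaving out control animal 2 at 2 years moved MYRF to -0.03. The change contains the same 5-month values that are described above, and nothing is read from its shared direction.

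With age, the means of the early genes were lower at 2 years in both exposures, and those of the later genes were higher in controls. How the stages differ here was not tested. In FASD animals the 3 early genes were lower at 2 years than at 5 months, by -0.62 (SE 0.23) for GPR17, -0.33 (SE 0.10) for SOX6 and -0.22 (SE 0.07) for NEU4. These became -0.61, -0.27 and -0.21 without FASD animal 2 at 5 months. The NEU4 groups did not overlap, with 6.86 to 7.04 at 5 months and 6.64, 6.68, 6.80, 6.81 and 6.85 at 2 years. Of all rows, 0.391% had every 2-year FASD animal below every 5-month FASD animal, and nothing is read from that share, as NEU4 was chosen with this difference known. GPR17 and SOX6 overlapped, with 4 of 5 and 3 of 5 of the 2-year FASD animals below all of the younger ones.

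The later genes differed among themselves in FASD animals. BCAS1 was lower at 2 years by -0.29 (SE 0.18), a value between those of NEU4 and SOX6, and by -0.12 without animal 2 at 5 months. SOX10 differed by -0.01 (SE 0.14), from -0.10 to 0.09 as 1 animal was left out, and MYRF by 0.11 (SE 0.09), or 0.05 without FASD animal 2 at 2 years. The age difference in FASD animals and the alcohol difference at 5 months share the 5 FASD animals of 5 months, so the same values of those animals enter both.

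In controls the early genes had the same signs and smaller differences, and whether they differed from those of FASD animals is the change given above. GPR17 differed by -0.35 (SE 0.21), NEU4 by -0.11 (SE 0.06) and SOX6 by -0.09 (SE 0.09). Single animals weighed on these values, which were -0.18 for GPR17 without control animal 5 at 2 years, -0.06 for NEU4 without control animal 4 at 5 months and -0.05 for SOX6 without control animal 6 at 5 months. NEU4 in the 2-year controls ranged from 6.66 to 6.89 (median 6.70), and 4 of the 6 lay below all 5-month controls. MYRF was higher at 2 years by 0.19 (SE 0.08), from 8.07 to 8.56 (median 8.28), with 4 of 6 animals above the highest 5-month control. BCAS1 was higher by 0.25 (SE 0.16), or 0.13 without control animal 6 at 2 years. SOX10 was higher by 0.07 (SE 0.13), where the 2-year controls spread from 6.69 to 7.61 (median 7.30), and was at -0.00 without control animal 2 at 2 years. Without control animal 6 at 5 months, the differences were -0.30 for GPR17 and 0.19 for MYRF.

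Placing each gene on a scale centred on its own mean lets the 3 genes of a stage be averaged in each animal. The early mean was 0.02 ± 0.13 (SD, n = 6) in 5-month controls, 0.28 ± 0.09 (SD, n = 5) in 5-month FASD animals, -0.17 ± 0.22 (SD, n = 6) in 2-year controls and -0.10 ± 0.26 (SD, n = 5) in 2-year FASD animals. The later mean was -0.14 ± 0.06, 0.10 ± 0.20, 0.03 ± 0.20 and 0.04 ± 0.23 in the same order. Without FASD animal 2 at 5 months, which had 0.45 in the later genes, the means of that group were 0.26 ± 0.09 (SD, n = 4) for the early and 0.01 ± 0.07 (SD, n = 4) for the later genes. The early mean was thus highest in 5-month FASD animals with and without that animal, while the later mean was highest there only with it, and was lowest in 5-month controls in both cases.

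The early mean minus the later mean sets the early genes against the later genes and does not measure numbers of cells at a stage. The genes were not scaled to a common spread, so GPR17 (residual SD 0.39) weighs more in it than NEU4 (0.10). SOX10 counts as later here, though it is present throughout the lineage. In controls and FASD animals the early minus later value was 0.16 ± 0.14 (SD, n = 6) and 0.18 ± 0.17 (SD, n = 5) at 5 months and -0.20 ± 0.15 (SD, n = 6) and -0.14 ± 0.23 (SD, n = 5) at 2 years. Without FASD animal 2 at 5 months, the mean of that group was 0.25 ± 0.12 (SD, n = 4). Whether the early minus later value differed between exposures was not tested. The controls of the 2 ages did not overlap, with -0.01 to 0.32 at 5 months and -0.45 to -0.04 at 2 years, while FASD animals overlapped through animal 4 at 2 years (0.18) and animal 2 at 5 months (-0.07). The early genes were lower and the later genes higher on average in older controls, which was known when the genes were chosen. Nothing is read from this separation.

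**Figure D2:**
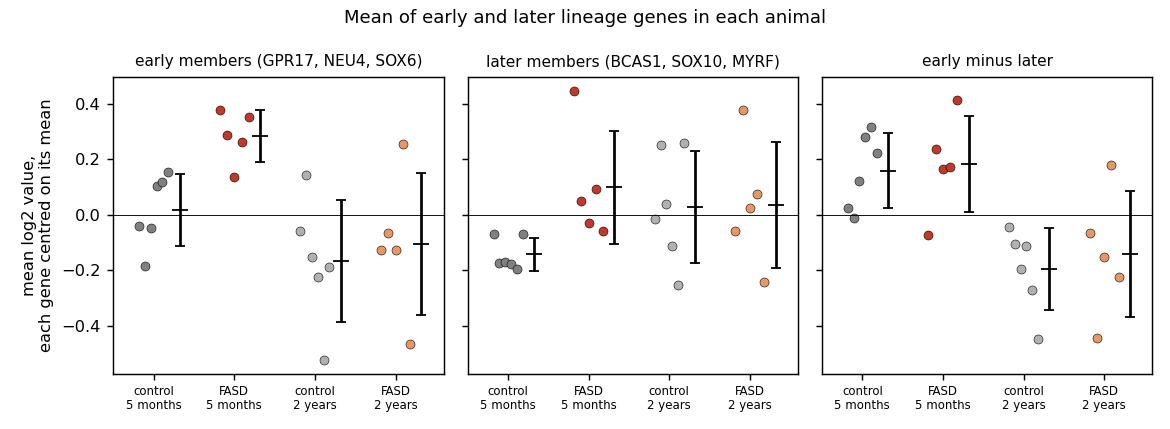
Mean centred log2 value of the 3 early genes (left), of the 3 later genes (middle) and their difference (right) in each animal, by group, with the group mean and SD. The difference is above 0 on average at 5 months and below 0 at 2 years, in controls (0.16 and -0.20) and in FASD animals (0.18 and -0.14). Without FASD animal 2, the mean of the 5-month FASD animals is 0.25. The genes were chosen with these group differences known.

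Of 5 measured genes of immature neurons, out of 7 listed, 5 had a lower mean at 2 years in controls and 4 in FASD animals. An unadjusted limma p under 0.05, the call used below to count rows, was reached by 3 of them in controls and 2 in FASD animals, all lower, against 5.55% and 6.99% of all rows in either direction. Called as lower were 434 of 11512 rows in controls and 263, or 2.28%, in FASD animals. Without FASD animal 2 at 5 months, 3 of the immature neuron genes were called in FASD animals. The centred mean of these genes ranged from 0.04 to 0.24 in 5-month controls, 0.20 to 0.29 in 5-month FASD animals, -0.51 to -0.05 in 2-year controls and -0.34 to 0.35 in 2-year FASD animals. Their part in the age differences of GPR17, NEU4 and SOX6 was not tested. For markers of dividing cells, 4 measured of 7, the range over all 22 animals was -0.10 to 0.17, and their mean was 0.05 in 5-month controls and -0.05 in 5-month FASD animals. Among them, CDK1 (group means 3.18 to 3.26) and MKI67 (4.30 to 4.40) had low intensities, beside array means of at least 7.90. A change in such rows may not be seen.

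Ordered by group mean, GPR17 ran from 2-year controls (6.40) through 2-year FASD animals (6.75) and 5-month controls (6.76) to 5-month FASD animals (7.38), and the step to the last was the only one wider than the residual SD of 0.39. NEU4 had the same order, with 1 step wider than its residual SD of 0.10, again the last. SOX6 rose from 2-year FASD animals (8.60) to 2-year controls (8.79), a step wider than its residual SD, and its other steps were not. For BCAS1, SOX10 and MYRF no neighbouring groups in the order of means differed by more than the residual SD. The residual SD is a spread of single animals, and the genes were chosen with these group means known. Nothing is read from which steps are wider than it.

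The other genes of the lineage were taken from 5 lists with 59 genes, of which 28 had a row. At 5 months 21 of the 28 were higher in FASD animals. An unadjusted p under 0.05 was reached by 8 of 28, all higher, against 4.83% of all rows in either direction and 1.47% as higher, and the median difference was 0.07 against -0.03 over all rows. No row of the table, lineage rows included, had an adjusted p under 0.05 (limma, Benjamini-Hochberg over 11512 rows) in any of the 6 comparisons, a share of 0%, and the lowest adjusted p at 5 months was 0.724. Without FASD animal 2 the 8 became 4, and without control animal 6 they became 9. The lists were chosen with earlier results of these data known, and their rows were measured in the same animals. The counts of all lists are therefore given as a description and not as independent support.

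Genes of myelin and mature oligodendrocytes made up 7 of those 8, out of 11 measured of 24 listed, with a median difference of 0.34. They were MBP, a structural protein of compact myelin (0.57, SE 0.16), UGT8, which makes the myelin lipid galactosylceramide (0.56, SE 0.14), MAL (0.42, SE 0.14) and PLLP (0.42, SE 0.17), both proteolipids of myelin membranes, KLK6, a protease of oligodendrocytes (0.30, SE 0.10), and GAL3ST1, which makes sulfatide from galactosylceramide (0.28, SE 0.11). The seventh was GJB1, a gap junction protein of myelinating cells (0.34, SE 0.15). CNP, a further myelin enzyme, was at -0.07 (SE 0.07). PLLP and KLK6 were, like GPR17, among the 14 rows with every FASD animal above every control. MBP, UGT8, MAL and KLK6 still reached the unadjusted p without FASD animal 2. All 7 differences were smaller without that animal, at 0.42 for MBP, 0.45 for UGT8, 0.32 for MAL and 0.31 for PLLP. KLK6 was then at 0.26, GAL3ST1 at 0.19 and GJB1 at 0.15 (SE 0.10), and the median of the 11 genes was 0.26.

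The eighth lineage row was ZNF488, a repressor that promotes oligodendrocyte differentiation (0.22, SE 0.10), the only one of 5 measured of 9 promoting regulators. OLIG2, a transcription factor that specifies the lineage, had 0.31 (SE 0.15) and an unadjusted p of 0.053 by limma. The other precursor genes, 5 measured of 11, included no call, and the lowest p there was that of VCAN, a chondroitin sulfate proteoglycan of precursors (0.24, SE 0.16). Neither the 2 measured of 8 genes of newly formed cells nor the 5 measured of 7 genes that restrain differentiation included a call, with the lowest p for TCF7L2 (0.15, SE 0.15) and for ID4, an inhibitor of differentiation (-0.21, SE 0.19).

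**Figure D3:**
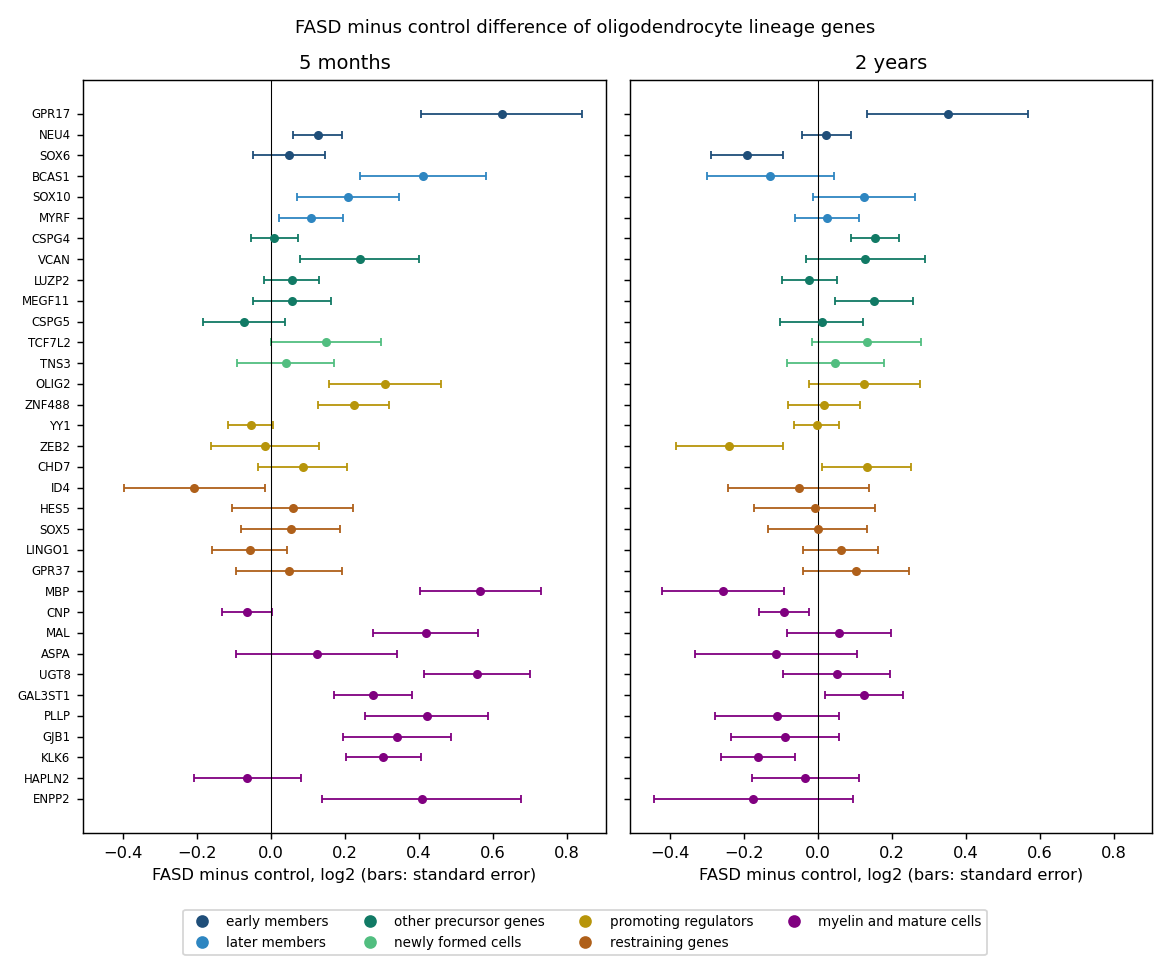
FASD minus control difference in log2 expression (horizontal axis) of the 6 genes and 28 other lineage genes (vertical axis) at 5 months (left) and 2 years (right). Points are differences of group means, bars their SE, and colours the lists. At 5 months 7 of 11 myelin genes lie above 0 with an unadjusted p under 0.05, from 0.28 for GAL3ST1 to 0.57 for MBP, and at 2 years none does.

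At 2 years 15 of the 28 lineage rows were higher in FASD animals, and 1 reached an unadjusted p under 0.05, CSPG4, the NG2 proteoglycan of precursors (0.16, SE 0.06), against 6.05% of all rows. None of the 11 myelin genes did, and their median was -0.09. Averaged over both ages, 3 of the 28 reached it, against 8.44% of all rows. The change of the difference from 5 months to 2 years passed in 4 of 28 rows, all of myelin and all below 0, against 3.00% of all rows in either direction and 0.886% below 0. These were MBP (-0.82, SE 0.23), PLLP (-0.53, SE 0.24), UGT8 (-0.51, SE 0.20) and KLK6 (-0.47, SE 0.14). Without FASD animal 2 at 5 months, MBP (-0.68) and KLK6 (-0.42) passed.

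In FASD animals 20 of the 28 rows were lower at 2 years than at 5 months, and 6 of them reached an unadjusted p under 0.05, against 2.28% of all rows. These were PLLP (-0.58, SE 0.17), MAL (-0.52, SE 0.15), UGT8 (-0.50, SE 0.15) and MBP (-0.49, SE 0.17) of the myelin list, VCAN (-0.37, SE 0.17) of the precursor list and ZNF488 (-0.35, SE 0.10). The same 6 passed without FASD animal 2 at 5 months. In controls 2 rows passed, both higher at 2 years, against 1.78% of all rows, and both were of myelin, KLK6 (0.39, SE 0.10) and MBP (0.33, SE 0.16). MBP thus had opposite signs in the 2 exposures.

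Measurements that did not enter the choice of the 6 genes are the deviations of the 22 animals from the mean of their own group. Over these, 14 of the 15 pairs of the genes had a positive Pearson's r, with a median of 0.45. Pairs of other rows were not taken as a background, so these values are not shown to be particular to the lineage. SOX10 was in all 3 pairs with an adjusted p under 0.05 in a permutation test within groups, two-sided, with Benjamini-Hochberg adjustment over 15 pairs. It went with MYRF at r = 0.77 (n = 22, permutation p = 0.0007, adjusted p = 0.00525, 0.66 without the 2 animals farthest from the median of SOX10), with SOX6 at r = 0.68 (permutation p = 0.00067, adjusted p = 0.00525, 0.54 without 2 animals) and with GPR17 at r = 0.65 (permutation p = 0.00882, adjusted p = 0.0441, 0.49 without 2 animals).

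Spearman's rho for the same pairs was 0.66, 0.60 and 0.53, with permutation p of 0.00438, 0.00869 and 0.0202 and adjusted p of 0.0652, 0.0652 and 0.101, so none of the 15 pairs passed by rank. The pair of GPR17 with SOX10 also went past an adjusted p of 0.05 in 11 of 22 fits that each left out 1 animal, with r of 0.50 to 0.76. These were every control of 2 years, controls 2 and 6 of 5 months, FASD animals 3 and 6 of 2 years and FASD animal 2 of 5 months. The other pairs passed in all 22 of their fits.

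By stage, the 3 pairs of early genes had r of 0.40 to 0.55, none with an adjusted p under 0.05, and the 9 pairs of an early with a later gene had a median of 0.45. The difference between these was not tested. BCAS1 had r of -0.00 with GPR17, 0.11 with MYRF, 0.25 with NEU4, 0.41 with SOX10 and 0.48 with SOX6. The 22 animals share no array, but the values of an animal share 1 RNA preparation.

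The pattern can be seen in single animals. FASD animal 6 at 2 years had the lowest value of its group in all 6 genes, from 0.12 below the group mean in NEU4 to 0.66 below in GPR17. Control animal 5 at 2 years was below its group mean in all 6 and lowest in 4, with GPR17 at 0.84 and SOX10 at 0.52 below the mean. Control animal 2 at 2 years was the highest in 5 genes and FASD animal 2 at 2 years in 4. FASD animal 2 at 5 months was above its group mean in all 6 genes and highest in 3.

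**Figure D4:**
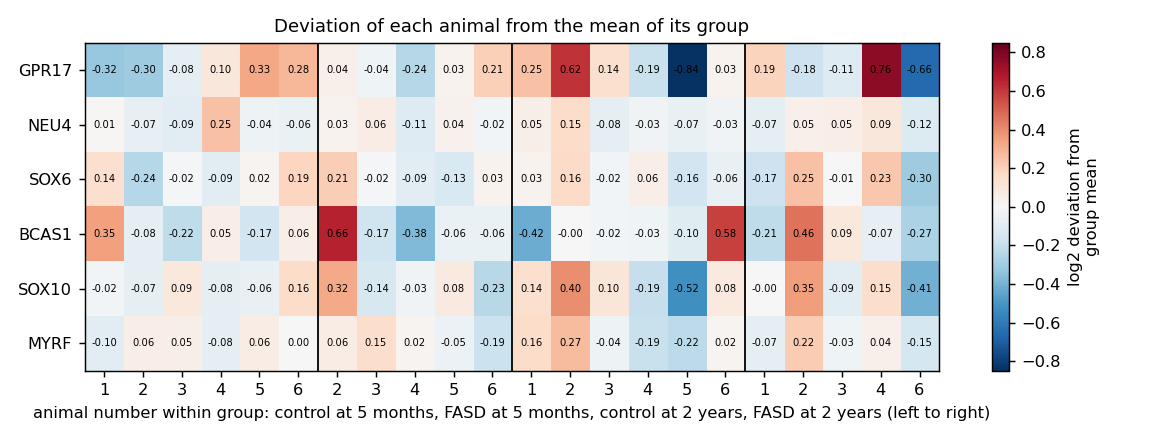
Deviation of each animal (columns, by group and animal number) from its group mean in log2 units for the 6 genes (rows), red above and blue below. Columns that are blue or red throughout are animals in which the 6 genes deviated together, such as FASD animal 6 at 2 years, the last column, with all 6 below its group mean.

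The deviations were also set against the mean of each of 9 lists, of myelin and of other cell types, which gave 54 pairs. With the 11 myelin genes all 6 genes had a positive r, from 0.24 (NEU4) to 0.80 (SOX10). SOX10 had a permutation p of 4e-05 and an adjusted p of 0.00216 (n = 22, rho 0.72, permutation p = 0.00056, adjusted p = 0.02), with r = 0.69 without the 2 farthest animals. SOX6 had r = 0.65, a permutation p of 0.00019 and an adjusted p of 0.00513 (rho 0.67, permutation p = 0.00074, adjusted p = 0.02), with r = 0.63 without 2 animals. MYRF had r = 0.61 with an adjusted p of 0.0721 and rho of 0.64 with an adjusted p of 0.0452, both by permutation. So the mean of the myelin genes moved with SOX10 and SOX6 from animal to animal within a group.

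With excitatory neuron genes, 5 measured of 11, all 6 genes had a negative r, from -0.15 (GPR17) to -0.64 (SOX10), and none passed the adjustment by permutation, the lowest adjusted p being 0.0607 for SOX10. BCAS1 had r = 0.60 with the mean of 8 microglial genes (permutation p = 0.00838, adjusted p = 0.0857). Its r with the mean of 7 astrocyte genes was 0.55 (permutation p = 0.00952, adjusted p = 0.0857). With the myelin genes it was 0.57 (permutation p = 0.0229, adjusted p = 0.155). Without the 2 farthest animals, r was 0.63 with microglial, 0.37 with astrocyte and 0.30 with myelin genes. No list of another cell type had a pair with an adjusted p under 0.05.

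**Figure D5:**
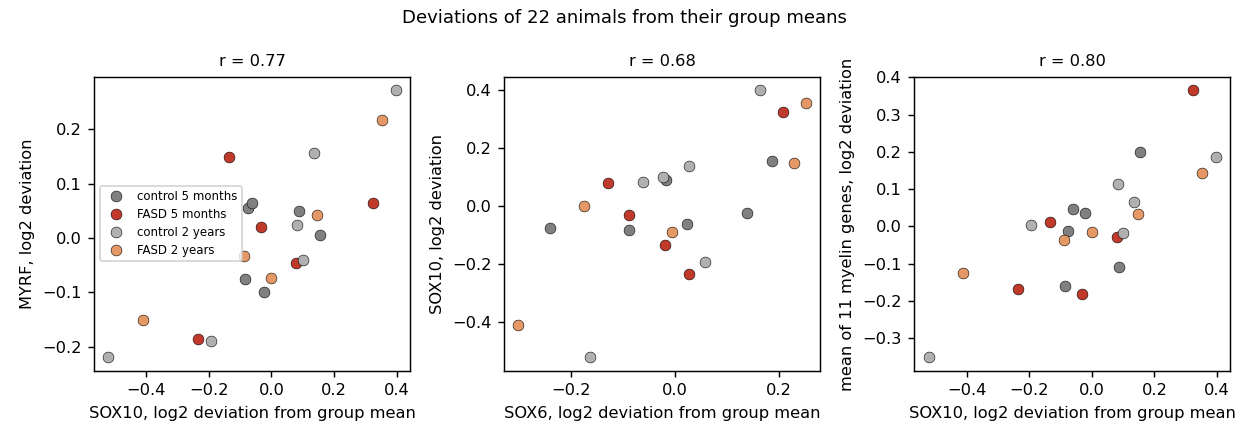
Log2 deviations of the 22 animals from their group means, for SOX10 and MYRF (left), SOX6 and SOX10 (middle), and SOX10 and the mean of 11 myelin genes (right), with Pearson's r above each panel. Each point is 1 animal, coloured by group. The points rise together in each panel, with r of 0.77, 0.68 and 0.80.

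Of the named rows outside the 6 genes, those whose deviations had the highest mean Pearson's r with GPR17, NEU4 and SOX6 over the 22 animals were INAVA (0.67), TREM2 (0.65), PAGR1 (0.65), CPTP (0.64) and LOC696958 (0.63). TREM2 is a receptor of microglia and CPTP a lipid transfer protein. For BCAS1, SOX10 and MYRF they were PCBP4 (0.72), NOP53 (0.71), PPP1R14A (0.71), ACAN (0.71) and SEPTIN4 (0.67). These are the highest of many rows and are given as a description. With SOX10 alone, the rows named for the later genes had r from 0.80 (NOP53) to 0.87 (PCBP4), beside 0.77 for MYRF with SOX10.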

How the data were processed

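Total RNA of 22 animals was measured on rhesus macaque arrays, 1 array per animal. As deposited, the values are on a log2 scale. They were made by the authors with RMA (background correction, normalization across arrays and 1 summary value per probe set). For RMA no version is given in the sources used here. The authors reduced the table to annotated and detected probe sets. Where a gene had several, they kept that of highest mean expression, and 11512 rows remained. Other probe sets of a gene may thus have been dropped. The columns of 2 FASD arrays that the authors discarded held no values, and 1 of them has the same number, 2, as a retained FASD animal at 5 months. By the platform annotation, 8730 rows have 1 gene symbol, and only these were named, while 88 have several symbols and 2694 have none.

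No further scaling or filter was applied. One mean per group was fitted to all rows with limma 3.58.1 in R 4.3.3, with empirical Bayes moderation and Benjamini-Hochberg adjustment, and differences and their SE come from this fit. The residual SD is that of a row over its group means. Within-group deviations were correlated in Python 3.11.15 with numpy 2.4.6 and tested by permuting animals within groups (100000 resamples, and 20000 in the fits that left out an animal). Figures were drawn with matplotlib 3.10.9. The fits were tested on simulated data. The 6 genes and the gene lists were chosen with earlier results of these data known. Of each lineage list, every row with an unadjusted p under 0.05 was named, at most 6 in order of p, or else the row of lowest p, and of the other lists only the mean. For each stage the 5 rows of highest mean r were named. CNP, OLIG2 and GJB1 fall outside this rule and were named after their values were seen.

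Alternatives were the two-way analysis of variance named in the methods, an intensity trend with robust variances, the row of highest mean per gene, rows at or above the lower quartile of intensity, centring of each array, array weights, quantile normalization, a block for the replicate number and omission of each animal in turn. The number of arrays limits the precision.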

Additional observations from a re-analysis of the deposited data

Results flagged for a closer look

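The highest of the 6 controls at 5 months in NEU4, animal 4 at 7.09, lay far from the others, with a gap to the next control of 0.709 of the range of the group against a limit of 0.625 for 6 animals. Over the 6 genes and 4 groups, 24 such sets of values were checked, and chance flags about 1 in 20. Without that animal the FASD minus control difference of NEU4 at 5 months was 0.18 in place of 0.13. It was the only control above any FASD animal, so leaving it out ends the overlap by itself. Nothing is read from that, as NEU4 was chosen with its group differences known.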

How the results depend on the processing

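GPR17 kept the sign of each of its 6 differences under every alternative run. Among the 28 lineage rows, the count with an unadjusted p under 0.05 for both ages together was 3, and it became 5 after quantile normalization and 9 with array weights. The count at 2 years was 1 and became 2 with array weights, and the count for age in controls was 2 and became 1 in the analysis of variance and among rows at or above the lower quartile. Leaving out 1 animal gave 4 to 9 lineage rows at 5 months (8 with all), 0 to 3 at 2 years (highest without control animal 2), 2 to 6 for both ages (highest without control animal 2 of 2 years), 1 to 3 for age in controls, 2 to 6 for the change between ages (4 with all), 4 to 8 myelin rows at 5 months (7 with all) and 2 to 5 pairs of the 6 genes (3 with all, 5 without control animal 4 of 5 months or FASD animal 2 of 2 years). The 4 myelin and 4 lineage rows at 5 months and the 2 for the change between ages were those without FASD animal 2 of 5 months.

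Over all rows, array weights raised the count at 5 months from 556 to 1160 and that at 2 years from 696 to 1219, and leaving out 1 animal gave 365 to 839 and 395 to 1670, so the shares of all rows set beside the members move as well. The count for both ages was 1674 with array weights, that for age in controls 1353 and that for the change between ages 724. The cause was not tested.

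Replicate numbers are shared between groups, and the labels do not say whether they pair the animals. The correlations that follow cannot settle it, as their ranges are wide. The deviations of same-numbered animals had a mean r of 0.07 over 30 pairs, from -0.33 to 0.39, and those of other pairs -0.01. With the replicate block, 8 lineage rows passed at 5 months and 5 for the change between ages, the early mean differed by 0.27 and the later by 0.24 at 5 months, and no count moved by more than 1.5 times.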
